A study of Mus musculus with 4 samples.

Results

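The mitochondrial ribosomal protein genes were followed in muscle stem cells (satellite cells) after a block of Numb exon 6. They were taken as every gene symbol made of Mrpl or Mrps, a number and at most 1 further letter, with the pseudogene symbols ending in -ps left out. This gave 78 of the 55487 genes in the deposited tables, 49 with an Mrpl and 29 with an Mrps symbol. The cells came from skeletal muscle of 2 mice that carry Tg:Pax7-nGFP, a transgene that puts a nuclear green fluorescent protein under Pax7 control and so marks satellite cells. All 4 libraries carry it, and the age of the mice is not given in the sources used here. Minced muscle was exposed to a vivo-morpholino, an antisense oligomer that enters cells without transfection, while it was first being digested. The agent was either a control morpholino or one that keeps exon 6 out of the mRNA of Numb, an inhibitor of Notch signalling. Both morpholinos were used on each mouse, with 1 library for each, and the 2 morpholinos can therefore be compared within each animal. The exposure preceded the isolation of the satellite cells, so cells of every type in the muscle met the morpholino.

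The mitochondrial ribosome is made of a large and a small subunit. Its proteins are encoded in the nucleus, translated in the cytosol and imported, while its rRNAs come from mitochondrial DNA. It translates the few mRNAs of mitochondrial DNA, which encode core subunits of the respiratory chain and of ATP synthase. Quiescent satellite cells hold few mitochondria and rely little on respiration, and mitochondrial mass and protein synthesis increase as the cells leave quiescence. Some of the proteins have a counterpart in bacterial ribosomes and others are specific to mitochondria. Of the 78 genes, 30 encode large subunit proteins with a bacterial counterpart and 21 large subunit proteins specific to mitochondria. The latter include Mrps30 and Mrps18a, which bear small subunit symbols but sit in the large subunit. A further 16 encode small subunit proteins with a bacterial counterpart and 10 small subunit proteins specific to mitochondria. Mrps36 was kept apart, because its product is now known as a component of the alpha-ketoglutarate dehydrogenase complex.

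The deposited values were estimated counts and TPM (transcripts per 1e6 transcripts, a level scaled to transcript length and library). The estimated counts summed to between 230431665 and 355411827 per library. They were derived from read coverage, so these totals are not numbers of sequenced fragments and give no counting interval. Values in the text are given with the control before the Numb exon 6 library. Numb itself stood at 27.2 and 39.7 TPM in mouse 1 and at 37.0 and 40.2 TPM in mouse 2. Values per gene do not show whether exon 6 was skipped, so they do not check the labels. The 10 satellite cell markers summed to 10694.5 and 11523.9 TPM in the controls and to 12440.4 and 12543.1 TPM in the Numb exon 6 libraries. Sdc4, which encodes a cell surface proteoglycan, made up most of that sum with 6499 to 7673 TPM, while Pax7 stood at 37.0 to 59.7 TPM. The 12 leukocyte markers summed to 33.2 and 38.0 TPM in the controls and to 43.6 and 133.7 TPM in the Numb exon 6 libraries. S100a8 (46.5 TPM) and S100a9 (36.0 TPM) made up most of the sum of 133.7 TPM, that of mouse 2. Cd68 stayed nearly level, at 17.6 and 17.9 TPM in mouse 1 and at 20.7 and 21.2 TPM in mouse 2. From control to Numb exon 6 library, 8 of the 12 rose within both mice, while C1qa and Csf1r fell. The 5 erythroid markers summed to between 538 TPM in the control of mouse 1 and 1733 TPM in the Numb exon 6 library of mouse 2. In log2 fold changes (Numb exon 6 over control), all 6 endothelial markers were above 0 (median 0.35). So were all 6 of fibro-adipogenic progenitors (0.29), 5 of smooth muscle and pericytes (0.12), 4 of glia (0.50) and 5 erythroid markers (0.34). Of the others, 10 of 12 leukocyte (1.39), 3 of 4 tenocyte (0.21), 4 of 6 myofibre (0.04) and 7 of 10 satellite cell markers (0.10) were. Within both mice, 3 of the 6 endothelial, 2 of the 4 glial and all 5 erythroid markers were higher, against 28.1% of all tested genes. So were 4 of 6 of fibro-adipogenic progenitors and 4 of 5 of smooth muscle and pericytes. The same held for 3 of 4 tenocyte, 2 of 6 myofibre and 6 of 10 satellite cell markers. The part of other cell types in the values below was not tested. In such bulk samples, fewer cells of a type and less RNA per cell cannot be told apart.

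The 78 genes are all annotated as protein-coding and lie on 17 chromosomes. The largest number on 1 chromosome was 11, on chromosome 11. Many of them share their start region with another gene. In 32 of the 78 (41.0%) another protein-coding gene starts within 1000 bases on the opposite strand, against 2208 of the 16736 tested protein-coding genes (13.2%). Some of these neighbours serve mitochondria too. Mrps12 lies back to back with Sars2, the mitochondrial seryl-tRNA synthetase, with 172 bases between the starts. Mrpl43 pairs with Twnk, the helicase of mitochondrial DNA replication, and Mrpl36 and Mrpl47 pair with Ndufs6 and Ndufb5, both of respiratory complex I. Mrpl46 and Mrps11, of opposite subunits, pair with each other. Exons of 23 of the 78 genes overlap those of another protein-coding gene. The overlap reached 88.0% of the exonic bases of Mrpl53, 69.8% of those of Mrps25 (with Nr2c2 on the other strand) and 63.4% of those of Mrps34 (with Mapk8ip3 on the other strand). Since the cDNA method keeps no record of the strand, the reads of such genes cannot be told apart with certainty.

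Promoter windows, from 250 bases before to 50 bases after the start, were found for 69 of the 78 genes in RefSeq (GRCm38.p6). They were searched on both strands for short cores of factors known from nuclear genes of mitochondria. The core of NRF1, GCATGCGC, was in 8 of the 69 windows (11.6%), against 3.61% of all 17492 windows. The ETS core bound by GABPA, CCGGAAGT, was in 11 (15.9%), against 5.29% of all. The core of YY1, AAGATGGC, was in 12 (17.4%), against 3.22% of all. Of these 12 matches 8 lay after the start, in the transcribed part, and 4 upstream. The NRF1 and ETS matches lay mostly upstream, in 8 and 9 genes. CCAAT, the box bound by NF-Y, was in 27 (39.1%), close to the 39.0% of all windows. At least 1 of the first 3 cores was in 28 windows (40.6%), against 11.4% of all. These are matches of letters, not measured binding sites, and no overlap between the cores was required or barred. Stretches upstream of 4 of the genes, outside annotated exons, are printed here because they show an NRF1 or an ETS match upstream of the start and belong to genes from both subunits described below. The match is in capitals, and each line reads towards the gene on its own strand.
Mrpl10, NRF1 match, chr11:97041408-97041559, plus strand: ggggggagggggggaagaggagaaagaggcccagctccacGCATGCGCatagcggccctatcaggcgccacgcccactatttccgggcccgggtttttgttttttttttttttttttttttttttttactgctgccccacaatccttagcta
Mrpl9, 2 overlapping NRF1 matches, chr3:94443086-94443317, plus strand: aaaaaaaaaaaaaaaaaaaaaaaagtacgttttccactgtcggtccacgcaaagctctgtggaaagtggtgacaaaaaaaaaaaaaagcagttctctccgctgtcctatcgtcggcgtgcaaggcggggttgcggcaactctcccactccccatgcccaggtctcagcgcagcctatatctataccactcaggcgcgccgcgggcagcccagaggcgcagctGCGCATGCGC
Mrpl43, ETS match, chr19:45006443-45006557, minus strand: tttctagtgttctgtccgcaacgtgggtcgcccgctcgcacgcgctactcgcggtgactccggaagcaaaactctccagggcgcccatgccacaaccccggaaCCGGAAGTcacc
Mrps27, ETS match on the opposite strand, chr13:99344706-99344785, plus strand: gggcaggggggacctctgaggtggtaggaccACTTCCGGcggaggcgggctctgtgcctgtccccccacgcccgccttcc

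All 78 genes passed the expression filter, which kept 27551 genes. Their transcripts were present in every library, with 2.26 TPM as the lowest value (Mrps35 in the control of mouse 1). The median of their mean TPM over the 4 libraries was 20.8, against 1.64 for all tested genes, and by mean TPM they stood between the 55.8th and the 97.4th percentile of the tested genes. The genes did not stand at 1 level, although the ribosome holds most of its proteins in equal number. Mean TPM ran from 2.60 (Mrps35) to 187 (Mrps6), a 72.1-fold range. Of the 78, 17 had a mean above 50 TPM and 12 a mean under 10 TPM.

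**Figure D1:**
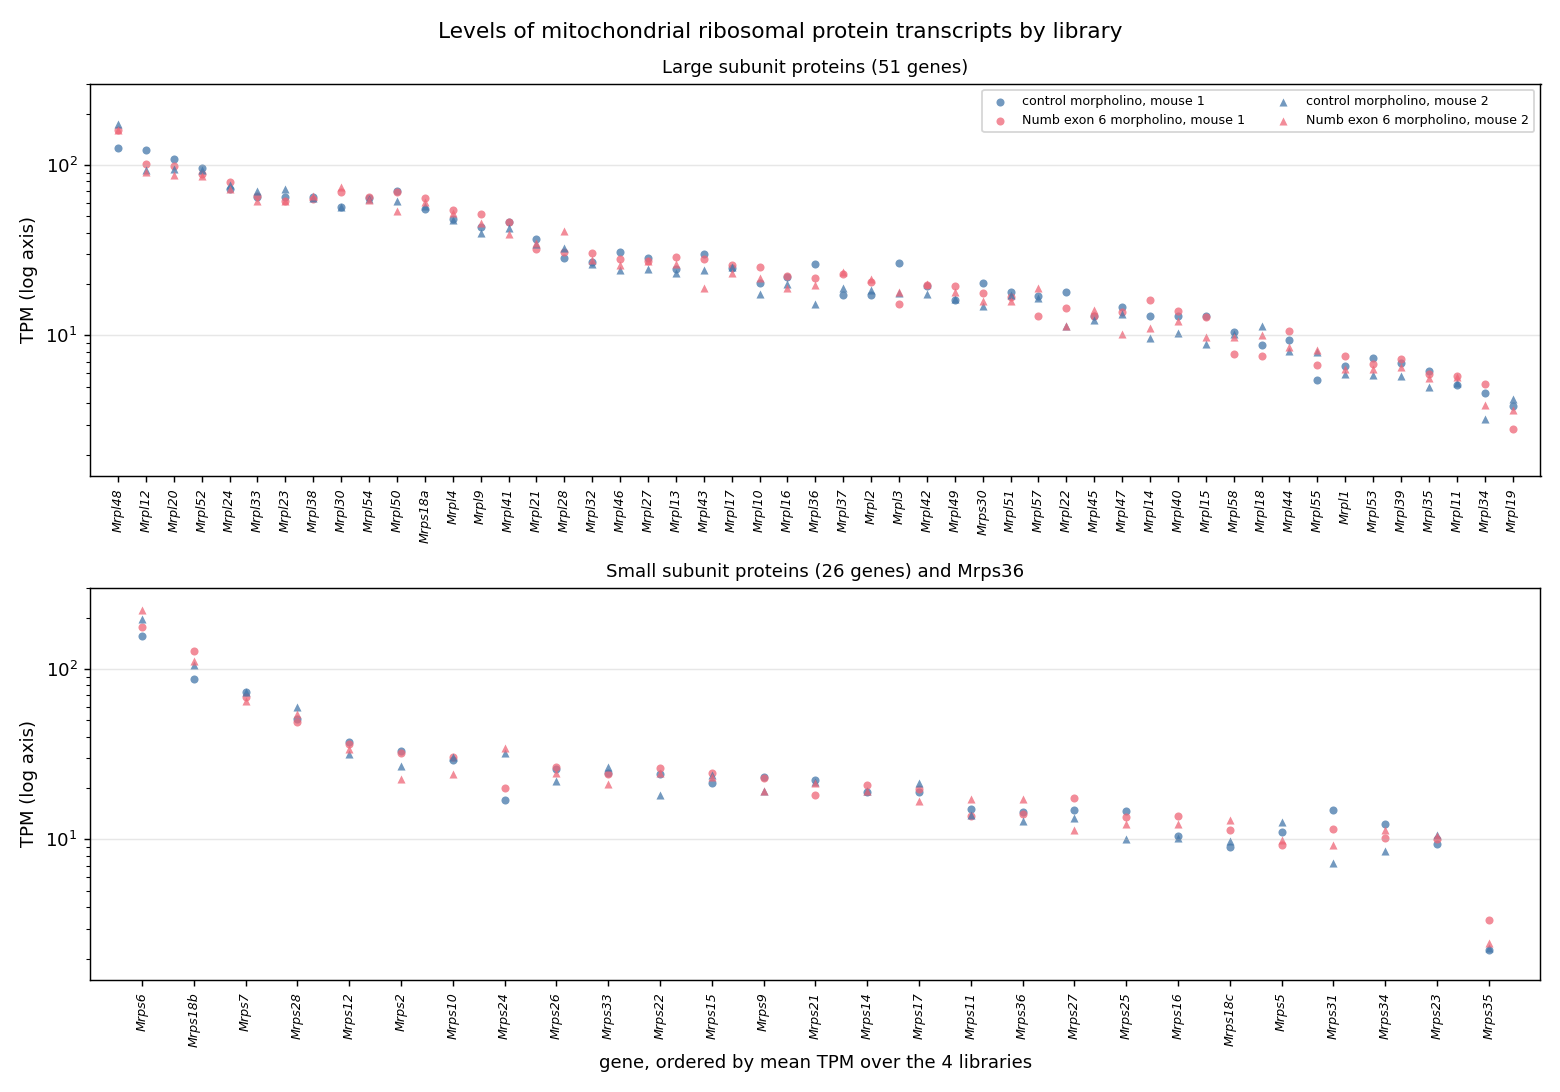
TPM (log axis) of the 51 large subunit genes (top) and of the 26 small subunit genes with Mrps36 (bottom), 1 column per gene in order of mean TPM. Circles are mouse 1, triangles mouse 2, blue the control and red the Numb exon 6 morpholino. Levels spread from 2.60 TPM (Mrps35) to 187 TPM (Mrps6), while the 4 libraries of most genes lie close together.

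Mrps6 (chr16:92058270-92112227), a protein of the small subunit platform, was the most abundant. It stood at 157 and 176 TPM in mouse 1 and at 195 and 221 TPM in mouse 2. Of its exonic bases 10.4% are shared with Slc5a3, a myo-inositol transporter, and 19.9% with the gene model Gm49711, so part of its level may belong to them. Mrpl48, a large subunit protein specific to mitochondria, followed with 155 ± 20.9 TPM (SD, n = 4), and then Mrps18b with 108 ± 16.8, Mrpl12 with 102 ± 13.9, Mrpl20 with 97.0 ± 8.61 and Mrpl52 with 91.2 ± 4.43 TPM. The range over the libraries of each of these genes overlapped with that of the next in the order. Within every library, however, Mrps6 stood above Mrpl48, and Mrpl48 above Mrps18b. These 6 genes made up 29.3% of the summed TPM. At the other end stood Mrps35 with 2.60 ± 0.51, Mrpl19 with 3.63 ± 0.59, Mrpl34 with 4.21 ± 0.84 and Mrpl11 with 5.45 ± 0.34 TPM (SD, n = 4). Here too the ranges of neighbours overlapped, although Mrpl11 stood above Mrpl34 in every library.

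The order of the genes was nearly the same in every library. Across the 78 genes, Spearman's rho of TPM was 0.98 between the morpholinos in mouse 1, 0.97 in mouse 2 and 0.96 between the controls of the 2 mice, given as a description because genes are not independent replicates. The coefficient of variation of TPM over the 4 libraries had a median of 10.9% and was under 10% for 34 genes. Mrpl54 was the steadiest, at 64.2 and 64.6 TPM in mouse 1 and at 63.4 and 62.0 TPM in mouse 2. The coefficient was over 20% for 7 genes (Mrpl14, Mrpl22, Mrpl3, Mrpl34, Mrpl36, Mrps24 and Mrps31), and highest for Mrps24 (33.3%).

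The morpholinos were compared to ask what differs in the transcriptome once exon 6 of Numb is blocked. None of the 78 genes was called between the morpholinos. edgeR's quasi-likelihood test with Benjamini-Hochberg adjustment over all tested genes called 0 of the 78 at an adjusted p of 0.05, and 0% of all 27551 genes. At an unadjusted p under 0.05 it took 0 of the 78, against 4.16% of all tested genes. Among the 8469 genes with a log2 CPM (counts per 1e6 counts) averaging at least 3 it took 3.53%. Blocked by mouse, edgeR at that unadjusted p again took 0 of the 78, against 6.09% of all and 10.2% of those 8469. DESeq2 called 0 of the 78, against 0.241% of the genes it adjusted, and when blocked by mouse 0, against 0.699%. limma-voom also called 0 of the 78.

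The log2 fold changes of the 78 genes, Numb exon 6 over control, lay around 0. They are given with their standard errors (SE), from 2 libraries per group. Their median was 0.002, beside 0.005 over all tested genes and 0.006 over the 8469 genes with a log2 CPM averaging at least 3. They ran from -0.31 (Mrpl57) to 0.38 (Mrps35), so all 78 estimates were within 1.5-fold. The median of the standard errors was 0.19, and 0.14 in the fit blocked by mouse. The 95% interval lay within 2-fold in either direction for 74 of the 78 genes, as it did for 38.8% of all tested genes, and within 1.5-fold for 36. With the block these numbers were 78 and 54. The share of intervals within 2-fold among the more abundant genes alone was not computed. The widest intervals reached -1.08 (Mrps31) and 1.08 (Mrpl34). For most of these genes a 2-fold difference is therefore outside the interval.

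**Figure D2:**
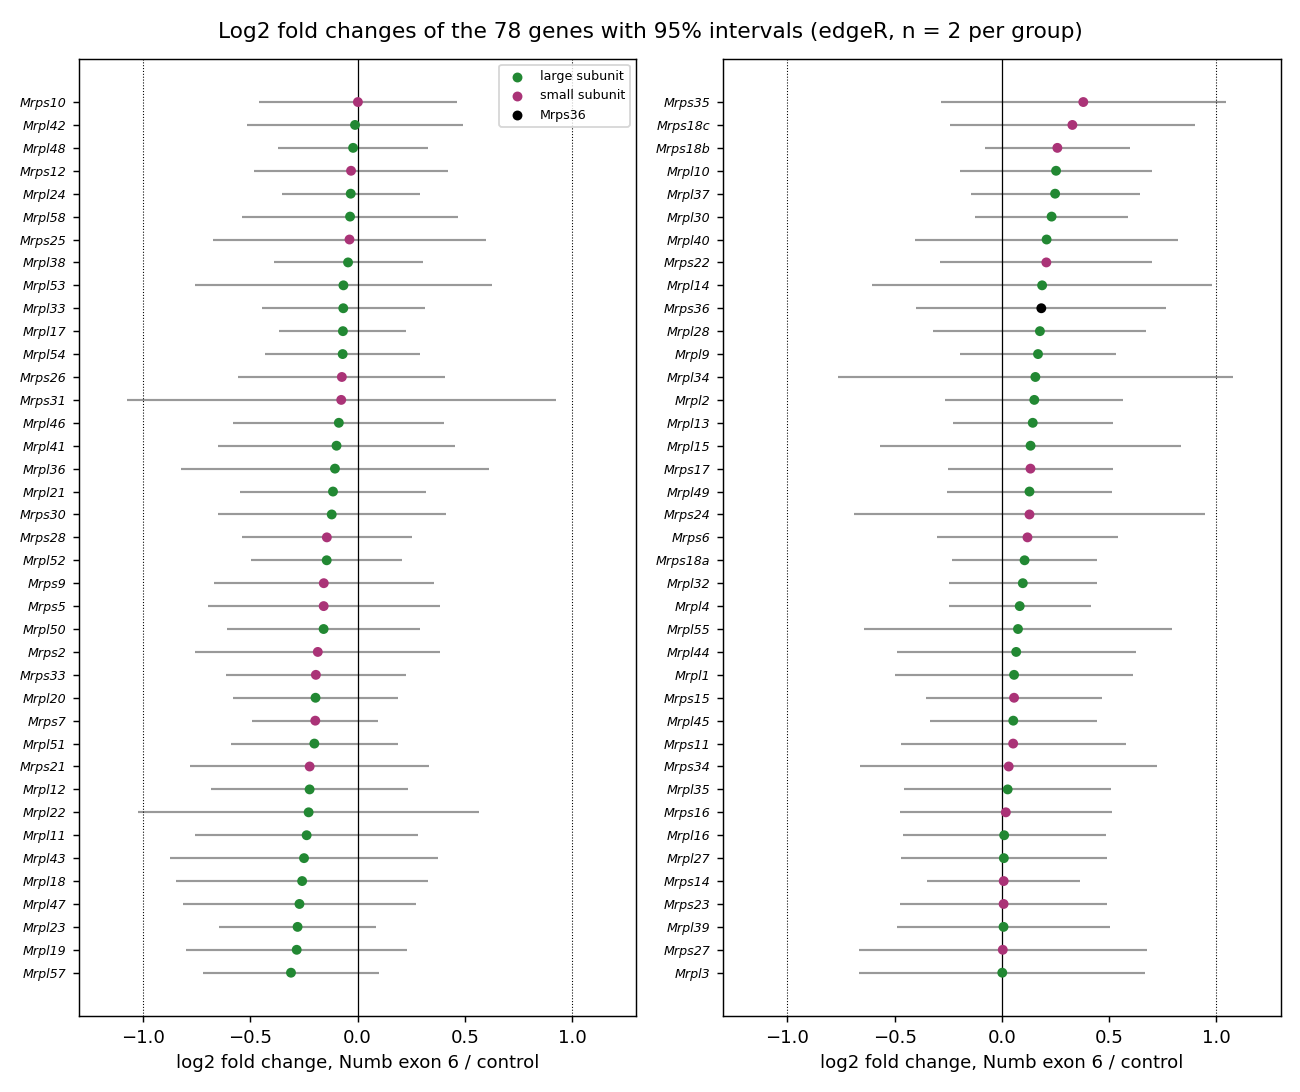
Log2 fold change (Numb exon 6 over control morpholino) of each of the 78 genes with its 95% interval from edgeR, ordered from lowest (left panel, bottom) to highest (right panel, top); dotted lines mark 2-fold. Estimates run from -0.31 (Mrpl57) to 0.38 (Mrps35), and every interval includes 0.

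On the count scale, the median shift of the 78 genes had opposite signs in the 2 mice. Within mouse 1 the median log2 ratio of the 78 genes was -0.07, and within mouse 2 it was 0.06, while the medians over all tested genes were 0.002 in both. Of the 78, 22 were lower with the Numb exon 6 morpholino in both mice (28.2%, against 27.3% of all tested genes) and 24 were higher in both (30.8%, against 28.1%). The remaining 32 had opposite signs. In 10 genes both Numb exon 6 libraries lay below both controls, and in 12 both lay above, where 17.1% and 17.4% of all tested genes did so. Across the 78 genes, Pearson's r between the ratios of the 2 mice was 0.14 and Spearman's rho 0.16. Pearson's r was 0.21 over the 8469 genes with a log2 CPM averaging at least 3. The median depended on single libraries: it was 0.119 without the control of mouse 1 and -0.106 without the control of mouse 2, and, for the Numb exon 6 libraries, -0.077 when that of mouse 1 and 0.021 when that of mouse 2 was left out. Of the counts in the control of mouse 1, 8.95% fell on AY036118 and CT010467.1, which resemble rRNA, against 5.00% to 6.53% in the other libraries. Without them and the mitochondrially encoded genes, the median of the 78 genes was -0.002.

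**Figure D3:**
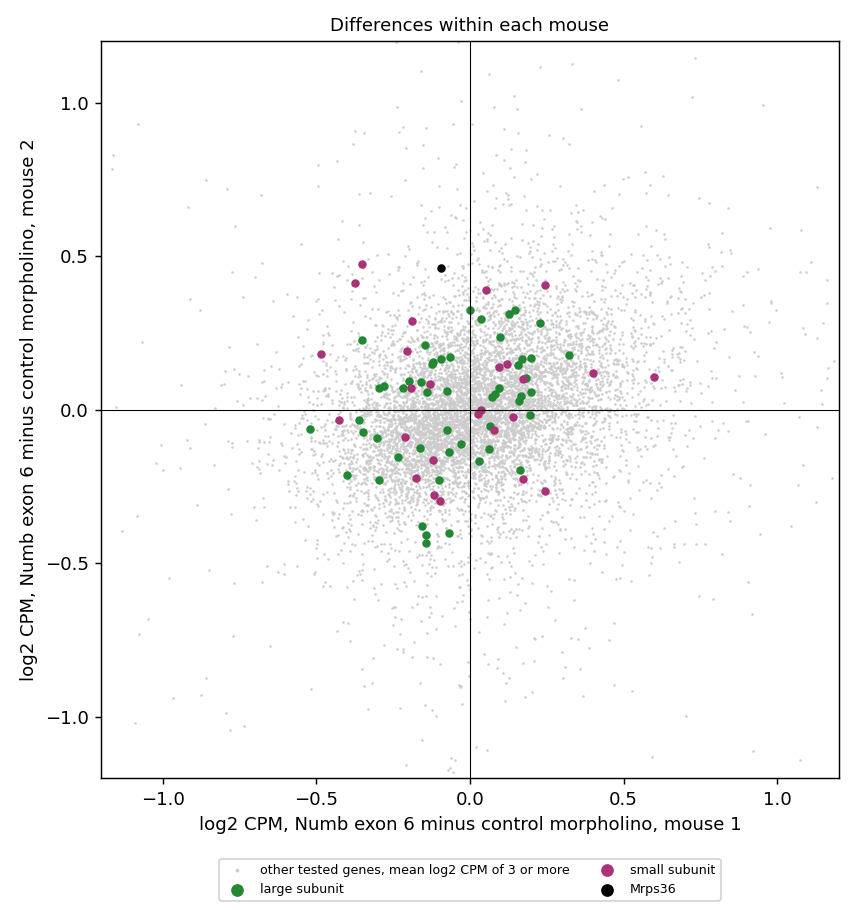
Difference in log2 CPM between the Numb exon 6 and the control library within mouse 1 (x axis) and mouse 2 (y axis), 1 point per gene. Green points are large subunit genes, purple small subunit genes, black Mrps36 and grey the other 8411 tested genes with a log2 CPM averaging at least 3, of which 101 lie outside the axes. The 78 genes scatter around the origin, 22 with both values below 0 and 24 with both above 0.

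In the sum over all 78 genes, the libraries stood at 2505 and 2593 TPM in mouse 1 and at 2490 and 2521 TPM in mouse 2. The Numb exon 6 library was 3.52% higher in mouse 1 and 1.25% higher in mouse 2. An exact permutation test of the 4 sums, two-sided, gave p = 0.333, which is also the smallest that 2 against 2 libraries allow. The 51 large subunit genes summed to 1713 and 1742 TPM in mouse 1 and to 1652 and 1657 TPM in mouse 2. The 26 small subunit genes summed to 777 and 837 TPM in mouse 1 and to 825 and 847 TPM in mouse 2. The abundant genes weigh most in these sums, and the most abundant, Mrps6, was higher with the Numb exon 6 morpholino in both mice on the TPM scale.

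Among the 30 large subunit proteins with a bacterial counterpart, the log2 fold changes had a median of 0.01. Of these genes, 9 were lower in both mice and 11 were higher. Mrpl23, which lines the exit of the nascent chain, stood at 64.7 and 61.1 TPM in mouse 1 and at 72.4 and 61.8 TPM in mouse 2. Its log2 fold change of -0.28 ± 0.14 had the smallest p among the genes lower in both mice (0.109, unadjusted edgeR). A processed pseudogene, Mrpl23-ps1, was listed at 8.32 to 11.7 TPM, so reads of the copies may be split between them. Mrpl20, an assembly protein of the bacterial-type core, had -0.20 ± 0.15, and Mrpl19 had -0.28 ± 0.20 from a level of only 2.83 to 4.21 TPM. Mrpl12, the stalk protein that recruits translation factors, stood at 122 and 101 TPM in mouse 1 and at 93.2 and 91.0 TPM in mouse 2. Its control library in mouse 1 was the highest of the 4, and the log2 fold change of -0.22 ± 0.18 became 0.008 without that library. Without the control library of mouse 2 it was -0.43 ± 0.16 (edgeR, unadjusted p = 0.047, adjusted p = 0.759).

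Mrpl10, which anchors that stalk to the ribosome, and Mrpl30 were the genes of this group with the smallest p among those higher in both mice. Mrpl10 stood at 20.3 and 25.1 TPM in mouse 1 and at 17.5 and 21.8 TPM in mouse 2, a log2 fold change of 0.25 ± 0.18. Mrpl30 stood at 56.4 and 69.0 TPM in mouse 1 and at 56.8 and 74.6 TPM in mouse 2, a log2 fold change of 0.23 ± 0.14. Both Numb exon 6 libraries lay above both controls for each of these genes. On the log2(TPM + 1) scale Mrpl30 had the difference 0.34 ± 0.12 (limma, unadjusted p = 0.035, adjusted p = 0.939), 1 of the 78 genes with an unadjusted p under 0.05 in that fit. When limma on that scale was blocked by mouse there were 2 of the 78, Mrpl30 (unadjusted p = 0.018) and Mrpl37 (0.33 ± 0.13, unadjusted p = 0.041), each with an adjusted p of 0.684. The share of all tested genes under that unadjusted p is not given here for these limma fits. The counts are therefore not read as a result about the 78 genes. Mrpl9, whose upstream stretch is printed above, was likewise higher in both mice (0.17 ± 0.14).

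Of the 21 large subunit proteins specific to mitochondria, 7 were lower in both mice and 5 were higher, and the median was -0.04 (log2 fold change). Mrpl57 had the lowest value of all 78 genes, -0.31 ± 0.16. It stood at 17.1 and 13.0 CPM in mouse 1 and at 14.9 and 12.9 CPM in mouse 2. On the TPM scale it was 17.0 and 13.0 in mouse 1 but 16.6 and 18.9 in mouse 2, so the direction in mouse 2 depended on the scale. Mrpl51 had -0.20 ± 0.15, Mrpl43 -0.25 ± 0.25 and Mrpl52 -0.14 ± 0.14. Mrpl37 was higher in both mice, at 17.3 and 22.9 TPM in mouse 1 and at 19.1 and 23.5 TPM in mouse 2, with a log2 fold change of 0.25 ± 0.16. Mrpl48 stood at 125 and 161 TPM in mouse 1 and at 174 and 161 TPM in mouse 2, so its 2 controls were its lowest and its highest library. Mrps30, also studied as a protein linked to apoptosis, had -0.12 ± 0.21. Mrpl58, the peptidyl-tRNA hydrolase that frees stalled ribosomes, had -0.03 ± 0.20.

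The 16 small subunit proteins with a bacterial counterpart had a median of 0.005, and in both mice 5 of them were lower and 5 higher. Mrps7, of the head of the subunit, had the smallest SE of the 78 genes. It stood at 73.4 and 68.2 TPM in mouse 1 and at 73.7 and 65.2 TPM in mouse 2, with a log2 fold change of -0.20 ± 0.12. Mrps12, part of the decoding centre, stood at 37.5 and 36.2 TPM in mouse 1 and at 31.6 and 33.7 TPM in mouse 2 (-0.03 ± 0.18). Mrps5, which lies at the mRNA entry, had a log2 ratio of -0.48 within mouse 1 and of 0.18 within mouse 2. Of the 10 small subunit proteins specific to mitochondria, the median was 0.007, and in both mice 1 was lower (Mrps33) and 3 were higher. Mrps33 was named because it stands alone in that count, after its value was seen. Mrps35 stood at 2.26 and 3.35 TPM in mouse 1 and at 2.30 and 2.48 TPM in mouse 2. Its 0.38 ± 0.26 was the highest log2 fold change of the 78, at their lowest level.

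The 3 genes Mrps18a, Mrps18b and Mrps18c encode paralogues of a single bacterial protein, placed at different sites of the mitochondrial ribosome. All 3 were higher with the Numb exon 6 morpholino in both mice, as were 28.1% of all tested genes. For each, both Numb exon 6 libraries lay above both controls, as for 17.4% of all tested genes. Of the exonic bases of Mrps18b 30.5% are shared with Gm16279 on the other strand. For Mrps18c 23.2% are shared with Gm43511 on the same strand. The part of these overlaps in the values was not tested. Mrps18a stood at 55.4 and 63.9 TPM in mouse 1 and at 57.6 and 60.7 TPM in mouse 2. Mrps18b stood at 86.8 and 127 TPM in mouse 1 and at 105 and 112 TPM in mouse 2, and Mrps18c at 9.07 and 11.3 TPM and then at 9.77 and 13.0 TPM. Mrps18b was thus far more abundant than Mrps18c in every library. The log2 fold change was 0.11 ± 0.13 for Mrps18a, 0.26 ± 0.13 for Mrps18b and 0.33 ± 0.23 for Mrps18c, and none had an unadjusted edgeR p under 0.05. Mrps36, apart from the ribosome, had log2 ratios of -0.09 within mouse 1 and 0.46 within mouse 2. Its processed pseudogenes were listed at up to 1.38 TPM.

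The widest disagreement between the mice was in Mrps34, Mrps31, Mrps5 and Mrpl36. Mrps34 stood at 12.3 and 10.1 TPM in mouse 1 and at 8.52 and 11.3 TPM in mouse 2. Its log2 ratios were -0.35 and 0.47. Mrps31 stood at 14.8 and 11.5 TPM in mouse 1 and at 7.23 and 9.33 TPM in mouse 2, with ratios of -0.37 and 0.41. Mrpl36 stood at 26.4 and 21.6 TPM in mouse 1 and at 15.3 and 19.8 TPM in mouse 2, with ratios of -0.35 and 0.23. In Mrps31, Mrps34 and Mrpl36 the 2 controls were the extremes, mouse 1 highest and mouse 2 lowest, and the Numb exon 6 libraries lay between them.

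For 3 genes the count and TPM scales disagreed most. Mrpl3, close to the peptidyl transferase centre, stood at 27.4 and 24.8 CPM in mouse 1 and at 17.4 and 20.1 CPM in mouse 2, a log2 fold change of 0.002 ± 0.26. In TPM it stood at 26.4 and 15.3 in mouse 1 and at 17.7 and 18.0 in mouse 2, a difference of -0.37 on the log2(TPM + 1) scale. The ratio of count to TPM, which follows the mean length of the transcripts assigned to a gene, corresponded to 1927 and 3181 bases in mouse 1 and to 1889 and 2199 bases in mouse 2. Mrpl11 had -0.24 on counts and 0.13 on log2(TPM + 1), and Mrps16 had 0.02 and 0.30. Over the 78 genes the median difference was 0.04 on log2(TPM + 1), beside 0.02 over all tested genes and 0.05 over those with a log2 CPM averaging at least 3. On this scale 18 genes (23.1%) were lower within both mice, against 23.0% of all tested genes and 22.1% of the more abundant ones. Within both mice 30 (38.5%) were higher, against 32.1% of all tested genes and 39.0% of the more abundant ones.

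More of the 78 genes had a small unadjusted p between the mice than between the morpholinos, and so did more of all tested genes. With mouse 2 against mouse 1, edgeR called 0 of the 78 at an adjusted p of 0.05, against 0.0254% of all tested genes. At an unadjusted p under 0.05 there were 10 (12.8%, against 8.31% of all and 13.8% of the 8469 genes with a log2 CPM averaging at least 3), 8 lower and 2 higher in mouse 2. DESeq2 called 1, Mrps24 (adjusted p = 0.044), against 1.95% of the genes it adjusted. Mrps24, a small subunit protein at the mRNA entry, stood at 17.1 and 19.9 TPM in mouse 1 and at 31.9 and 34.5 TPM in mouse 2, and the libraries of the mice did not overlap. Its log2 fold change was 0.63 ± 0.16 (SE, n = 2 libraries per mouse, edgeR adjusted p = 0.542). Of the exonic bases of Mrps24 15.4% are shared with Urgcp on the same strand. The part of this overlap in its values was not tested. Mrpl3, Mrps25 and Mrps31 were lower in mouse 2, by -0.48 ± 0.14, -0.45 ± 0.14 and -0.72 ± 0.23. The median over the 78 genes was -0.10, beside 0.02 over all tested genes and -0.03 over those with a log2 CPM averaging at least 3, and 60 of the 78 values (76.9%) were below 0, against 48.4% of all tested genes and 55.7% of the more abundant ones. Between the controls the median difference was -0.19 and between the Numb exon 6 libraries -0.11. With 1 animal against 1, a difference between animals and one between preparations cannot be told apart. The erythroid markers summed to 538 and 928 TPM in mouse 1 and to 1532 and 1733 TPM in mouse 2, and all 5 were higher in mouse 2 (median log2 fold change 1.16). The other marker lists had medians below 0. All 6 endothelial markers were lower in mouse 2 (median -0.50), as were all 4 of glia (-0.53) and all 6 of fibro-adipogenic progenitors (-0.23). So were all 4 of tenocytes (-0.24), 5 of 6 of myofibres (-0.12) and 3 of 5 of smooth muscle and pericytes (-0.41). Leukocyte markers were split, 6 lower and 6 higher (-0.03), with S100a9 at 4.03 ± 1.21 and S100a8 at 3.64 ± 1.08. Of the satellite cell markers 6 were lower and 4 higher (-0.07). The part of these cell types in the difference was not tested.

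Other parts of mitochondrial translation were compared by lists taken from general knowledge. Of 5 mitochondrial ribosomal proteins that bear other symbols, 2 were lower in both mice and 1 was higher, around a median of -0.08. Aurkaip1, a small subunit protein also known as a partner of Aurora kinase A, had a log2 fold change of -0.70 ± 0.17. It stood at 61.1 and 43.3 TPM in mouse 1 and at 67.7 and 32.3 TPM in mouse 2, so both Numb exon 6 libraries lay below both controls. Its unadjusted edgeR p was 0.0082 and its adjusted p 0.999, while DESeq2 blocked by mouse called it (adjusted p = 0.014), the 1 call in that list, and DESeq2 without the block did not (adjusted p = 0.121). Neither the other 4 nor any of the 78 reached an unadjusted edgeR p of 0.05.

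The 26 assembly and rRNA modification factors had a median of 0.01, and in both mice 6 were lower and 10 higher. Mettl15, a methyltransferase of the small subunit rRNA, had 0.57 ± 0.18, and Eral1, the GTPase that chaperones that rRNA, had 0.35 ± 0.15. The 15 translation factors had a median of 0.03, and in both mice 5 were lower (33.3%) and 5 higher (33.3%). The 17 mitochondrial aminoacyl-tRNA synthetases had a median of 0.22, and in both mice 9 were higher (52.9%) and 1 lower (5.88%). Iars2 and Cars2, which charge isoleucine and cysteine tRNA, had 0.51 ± 0.15 and 0.49 ± 0.21. edgeR called 0 in each of these lists, and the unadjusted p was under 0.05 for Mettl15 and Iars2 alone.

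The signs of the 2 mitochondrial rRNAs were those of the median of the 78 genes within each mouse. The large subunit rRNA mt-Rnr2 had log2 ratios of -0.34 within mouse 1 and 0.21 within mouse 2, and the small subunit rRNA mt-Rnr1 of -0.36 and 0.20. For mt-Rnr2 the control of mouse 1 was the highest and the control of mouse 2 the lowest of the 4 libraries. The 13 mitochondrially encoded mRNAs, which the ribosome translates, had medians of -0.02 within mouse 1 and 0.17 within mouse 2. mt-Co1, of cytochrome c oxidase, was higher in both (0.13 ± 0.09).

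Among 10 nuclear regulators of mitochondrial genes, the smallest p was that of Pprc1, which encodes a coactivator of the PGC-1 family that works with NRF1. It stood at 97.9 and 63.9 TPM in mouse 1 and at 97.8 and 66.1 TPM in mouse 2. On log2(TPM + 1) its difference was -0.58. On counts its log2 fold change was larger, -0.87 ± 0.11, with an unadjusted edgeR p of 0.00046 and an adjusted p of 0.999. DESeq2 called it, with an adjusted p of 6.6e-05, and of 1.4e-08 when blocked by mouse. Esrra, an orphan receptor that drives mitochondrial genes, had 0.84 ± 0.31 from 0.77 to 1.58 TPM. NRF1 itself (Nrf1) had -0.07 ± 0.13, Gabpa 0.08 ± 0.15 and Yy1 0.16 ± 0.13. Beside these values, the 8 genes with an NRF1 core in their window had a median log2 fold change of 0.05 and the 61 without it -0.01. The 11 with an ETS core had -0.07 and the 58 without it 0.005, and the 12 with a YY1 core had 0.04 and the 57 without it -0.03. These medians are descriptions, with no test. Of the 4 genes printed above, Mrpl10 and Mrpl9 were higher in both mice, Mrpl43 was lower in both, and Mrps27 had ratios of 0.17 and -0.23.

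The log2 fold changes of back-to-back genes were nearly uncorrelated. Of 30 distinct pairs with both genes tested, 12 had log2 fold changes of the same sign. Pearson's r across the pairs was 0.02, as a description. The share of equal signs among other gene pairs was not computed. Mrpl46 and Mrps11 had -0.09 ± 0.19 and 0.05 ± 0.21, and Mrps12 and Sars2 had -0.03 ± 0.18 and 0.27 ± 0.26. Mrps18b and its neighbour Ppp1r10, a regulatory subunit of a protein phosphatase, had 0.26 ± 0.13 and -0.03 ± 0.17.

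Beside the mitochondrial ribosome, the 81 tested cytosolic ribosomal protein genes had a median of -0.12, and in both mice 60 were lower (74.1%) and 9 higher (11.1%). The 82 tested nuclear genes of oxidative phosphorylation had a median of -0.08, and 45 were lower and 18 higher in both. The median of the mitochondrial ribosomal protein genes exceeded that of the cytosolic ones by 0.08 within mouse 1 and by 0.14 within mouse 2. The difference between the lists was not tested.

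**Figure D4:**
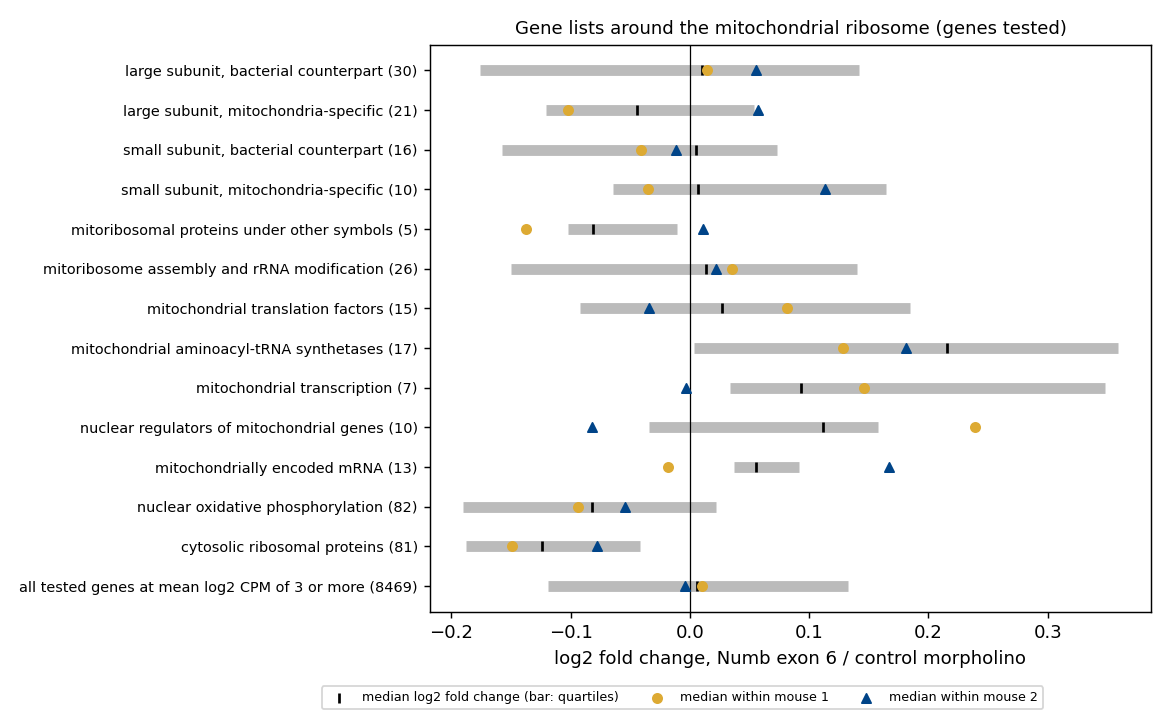
Median log2 fold change (Numb exon 6 over control morpholino) of each gene list (black tick) with the quartiles over its genes (grey bar) and the median within mouse 1 (circle) and mouse 2 (triangle); the number of tested genes is in brackets. The 4 groups of mitochondrial ribosomal protein genes lie between -0.04 and 0.01, near all tested genes, while the cytosolic ribosomal proteins lie at -0.12 and the synthetases at 0.22.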

How the data were processed

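SMART-Seq2 cDNA was prepared from 5 ng of RNA for each of the 4 libraries, per the labels' protocols. HISAT2 2.1.0, StringTie 1.3.6 and the build GRCm38 are named in the submitters' processing notes. The authors deposited estimated counts and TPM per gene. The annotation release is not given in the sources used here. Coordinates and exons came from GENCODE vM21 (GRCm38). The counts were fitted as deposited with edgeR 4.0.16 in R 4.3.3 (quasi-likelihood, robust, TMM, default filter by group, no block, Benjamini-Hochberg adjustment at 0.05). Log2 ratios within a mouse, on the log2 CPM scale, had 2 added as prior count. The tests were checked on simulated counts.

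Same-numbered libraries come from 1 animal, so the mouse pairs them. Their deviations correlated at 0.06 over all tested genes and at 0.40 over those with a log2 CPM averaging at least 3. The main edgeR fit left this pairing out and treated the libraries as independent. Its standard errors, intervals and p-values are therefore unpaired, and the fit blocked by mouse is the alternative.

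Alternatives were the block, other size factors and filters, DESeq2 1.42.0, limma 3.58.1 (voom, and log2(TPM + 1) or log2(TPM + 0.1)), counts divided by 4, and removal of each library. The members and lists were chosen with earlier results of these data known. Genes were named by level, by smallest p per direction with the same sign in both mice, by disagreement between mice or scales, by the mouse comparison, from a fixed set, and by the 2 smallest p of each further list; neighbours, promoter examples and others outside this rule were named after their values were seen.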

Additional observations from a re-analysis of the deposited data

Results flagged for a closer look

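These genes had log2 ratios (Numb exon 6 over control) of opposite sign in the 2 mice. The difference between the mice was not tested, since each mouse has 1 library per morpholino. Opposite signs were seen in 32 of the 78 genes (41.0%), against 43.9% of all tested genes and 38.7% of those with a log2 CPM averaging at least 3.

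The small and large subunit genes named here come first, and each pair of values is the log2 ratio within mouse 1 and then within mouse 2. Among large subunit genes the ratios were -0.15 and 0.21 for Mrpl3, -0.35 and 0.23 for Mrpl36, 0.16 and -0.19 for Mrpl48, -0.16 and 0.09 for Mrpl58, and -0.28 and 0.08 for Mrps30. Among small subunit genes they were -0.13 and 0.08 for Mrps12, -0.21 and 0.19 for Mrps25, -0.37 and 0.41 for Mrps31, -0.35 and 0.47 for Mrps34, and -0.48 and 0.18 for Mrps5. Mrps36 had -0.094 and 0.46. The rRNAs had -0.36 and 0.20 (mt-Rnr1) and -0.34 and 0.21 (mt-Rnr2). Mrpl48 was the only one of these with a ratio above 0 in mouse 1.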

How the results depend on the processing

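No alternative called any of the 78 genes between the morpholinos. Their lowest adjusted p among the named genes was 0.684 (limma on log2(TPM + 1) with the mouse as a block). Over all genes, edgeR called 0, also with the mouse as a replicate block, but 1 once genes under a CPM of 5 in more than 2 libraries were dropped, 10 with no expression filter, and 0 to 1 when a library was left out. DESeq2 called 65, and 159 with the block. The unadjusted edgeR count under 0.05 was 1145, and 1677 with the block. The block left the median of the 78 genes at -0.0004 and changed no call among them. Without 1 library that median ran from -0.106 to 0.119, and under the other settings from -0.046 to 0.045. With trends of GC content and length removed it was -0.02 over the 58 of them with a log2 CPM averaging at least 3, beside -0.0044 over all such genes, and it was 0.005 over the 55 that share no exons with another protein-coding gene, both chosen after seeing the data. The count lower in both mice, 22, was 18 on log2(TPM + 1), also chosen after seeing the data. It has no separate block value, since it is taken within mice. In the mouse comparison DESeq2 called 1 of the 78, edgeR 0.

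Of 524 values of 31 named genes over 17 settings, 55 changed sign and none passed the threshold. The cause was not tested. On log2(TPM + 1), with and without the block, and on log2(TPM + 0.1), the values were 0.13 and 0.15 for Mrpl11, -0.37 and -0.38 for Mrpl3, 0.038 and 0.041 for Mrpl36, 0.12 and 0.12 for Mrpl48, 0.021 and 0.022 for Mrps12, and 0.078 and 0.086 for Mrps25. Mrps31 had 0.0011 on log2(TPM + 0.1), 0.014 with limma-voom, 0.018 with the edgeR replicate block and 0.016 with the DESeq2 block. Mrpl3 had -0.0039 with the CPM filter, -9.4e-05 with counts divided by 4, -0.0055 unfiltered, -0.046 with upper quartile factors and -0.0018 without mitochondrial and rRNA-like genes. Upper quartile factors gave -0.028 for Mrps16 and -0.012 for Mrps34.
Leaving out 1 library at a time gave -0.43 to 0.0081 for Mrpl12, -0.30 to 0.37 for Mrpl3, -0.10 to 0.46 for Mrpl34, -0.43 to 0.30 for Mrpl36, -0.14 to 0.11 for Mrpl48, -0.11 to 0.032 for Mrpl58, -0.18 to 0.13 for Mrps12, -0.094 to 0.12 for Mrps16, -0.20 to 0.49 for Mrps24, -0.33 to 0.32 for Mrps25, -0.36 to 0.16 for Mrps30, -0.53 to 0.58 for Mrps31, -0.25 to 0.38 for Mrps34, -0.35 to 0.054 for Mrps5 and -0.041 to 0.27 for Mrps6.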
